A study of Mus musculus with 16 samples.

Results

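Myoc, Omd, Angptl7, Gpx3 and Wnk4 are 5 of the 30943 genes measured on arrays of mouse ear skin. They were selected on their deposited log2 levels in imiquimod ears, which were lower in miR-146a -/- than in wild-type mice, so that difference describes the selection and is not a finding. Total RNA came from whole ear flaps of mice aged 8 to 11 weeks, on 16 Affymetrix Gene ST 2.1 arrays, 4 per group. The groups were wild-type C57BL/6J ears given a vehicle control, wild-type C57BL/6J ears given imiquimod (IMQ), and miR-146a -/- ears on the C57BL/6J background given either of the 2 treatments. IMQ, a Toll-like receptor 7 agonist used to induce psoriasis-like inflammation in mouse skin, was given as Aldara cream, of which IMQ makes up 5%, at 31.25 mg a day for 3 days on the right ear, and tissue was taken on day 4. The sources used here do not give the vehicle's composition, the hour of collection or whether the arrays of a group came from separate mice, so the p-values below measure the spread between these samples.

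Myocilin (Myoc) and angiopoietin-like 7 (Angptl7) are secreted glycoproteins best known from the trabecular meshwork of the human eye, where glucocorticoids raise both. Osteomodulin (Omd) is a keratan sulfate proteoglycan of the small leucine-rich family and binds matrix collagens and mineral. Gpx3 is the secreted, selenium-containing glutathione peroxidase of plasma, which reduces hydroperoxides, and Wnk4 is a kinase that sets sodium-chloride cotransport in the distal kidney tubule and acts through the SPAK and OSR1 kinases. The deleted gene makes miR-146a, a microRNA that restrains signalling downstream of Toll-like and IL-1 receptors.

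The mature miR-146a-5p lies on chromosome 11 of the mouse RefSeq assembly GRCm38.p6, on the minus strand at chr11:43374435-43374456. It is shown because it defines the genotype, with its seed (bases 2 to 8) in capitals.
mmu-miR-146a-5p: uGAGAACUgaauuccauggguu
The array's own Mir146 cluster could not check the genotype. Its mean was 1.87 ± 0.22 and 1.97 ± 0.13 in wild-type vehicle and IMQ ears and 1.80 ± 0.02 and 1.84 ± 0.09 in the matching knockout ears (log2 levels, SD, n = 4). All 4 means lay between the 0.278th and 2.28th percentiles of genes, where an array hardly measures.

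Promoter windows of 300 bases around the annotated start were matched by symbol in the RefSeq table for all 5 genes. Those of Myoc, Omd and Angptl7, whose levels moved together, and of Gpx3, whose levels did not follow them, are shown 5′ to 3′ on the gene's own strand, with capitals marking matches to the motifs described next. The Myoc window lies at chr1:162638900-162639199 on the plus strand, that of Omd at chr13:49582212-49582511 on the plus strand, Angptl7 at chr4:148500413-148500712 on the minus strand and Gpx3 at chr11:54902604-54902903 on the plus strand, all in GRCm38.p6.
Myoc: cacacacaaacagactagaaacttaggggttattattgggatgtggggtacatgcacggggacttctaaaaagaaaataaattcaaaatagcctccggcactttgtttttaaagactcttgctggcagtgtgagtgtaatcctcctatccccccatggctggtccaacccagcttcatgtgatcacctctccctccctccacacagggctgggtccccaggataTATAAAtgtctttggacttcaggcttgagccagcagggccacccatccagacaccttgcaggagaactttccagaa
Omd: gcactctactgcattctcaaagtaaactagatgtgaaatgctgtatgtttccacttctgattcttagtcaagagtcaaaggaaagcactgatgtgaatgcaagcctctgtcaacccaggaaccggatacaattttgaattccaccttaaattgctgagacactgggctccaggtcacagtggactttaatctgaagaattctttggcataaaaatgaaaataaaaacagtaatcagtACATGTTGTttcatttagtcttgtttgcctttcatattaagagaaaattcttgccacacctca
Angptl7: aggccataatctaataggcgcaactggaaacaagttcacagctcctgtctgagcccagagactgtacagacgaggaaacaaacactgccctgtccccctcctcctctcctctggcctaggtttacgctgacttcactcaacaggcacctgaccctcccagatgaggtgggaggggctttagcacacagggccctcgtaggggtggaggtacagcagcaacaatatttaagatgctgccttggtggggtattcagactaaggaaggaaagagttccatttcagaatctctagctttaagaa
Gpx3: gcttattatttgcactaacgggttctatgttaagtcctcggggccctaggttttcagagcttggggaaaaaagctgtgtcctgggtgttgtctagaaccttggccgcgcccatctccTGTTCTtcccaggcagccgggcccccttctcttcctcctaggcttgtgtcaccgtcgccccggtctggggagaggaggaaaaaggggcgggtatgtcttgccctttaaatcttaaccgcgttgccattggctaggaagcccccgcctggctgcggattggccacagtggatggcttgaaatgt
The letters searched were ACANNNTGT, the core of the full glucocorticoid response element (its own reverse complement), AGAACA on both strands, which is a single arm of that element and can overlap the full core, CACGTG, an E-box (its own reverse complement), and TATAAA on both strands. The Myoc window held TATAAA from position -26 to -21 before the start, and 13.6% of all 32851 windows of the same length held those letters. The Omd window held ACANNNTGT, as ACATGTTGT, from -13 to -5, against 6.85% of all windows. The Gpx3 window held AGAACA on its minus strand from -133 to -128, against 19% of all windows. The Angptl7 and Wnk4 windows held none of the 4 motifs, and CACGTG, found in 7.15% of all windows, occurred in none of the 5. The windows also differed in base composition, with a GC content of 37.7% for Omd, 48.7% for Myoc, 51.3% for Angptl7, 56.3% for Gpx3 and 70.7% for Wnk4. These matches describe letters in 1 window per gene and say nothing about a factor bound there.

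Myoc, the secreted olfactomedin-domain protein, read well above the array medians of 3.21 to 3.28 in every group. On the log2 scale wild-type vehicle arrays 1 to 4 read 8.49, 8.10, 8.06 and 8.50, and wild-type IMQ arrays read 8.86, 9.05, 8.38 and 8.80. Knockout vehicle arrays read 8.10, 8.27, 8.83 and 8.57, and knockout IMQ arrays 7.38, 6.95, 7.40 and 6.87. The 4 knockout IMQ arrays lay below all 12 others, whereas the other groups overlapped each other. The selection on low knockout IMQ levels favours such a separation, and the share of all genes that show it was not counted. Group means were 8.29 ± 0.24, 8.77 ± 0.28, 8.44 ± 0.32 and 7.15 ± 0.28 in that order (SD, n = 4), from the 98.4th percentile of genes in wild-type IMQ ears down to the 93.3rd in knockout IMQ ears. In bulk ear skin, fewer cells that make a transcript and less transcript per cell cannot be told apart, for this gene and those below.

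**Figure D1:**
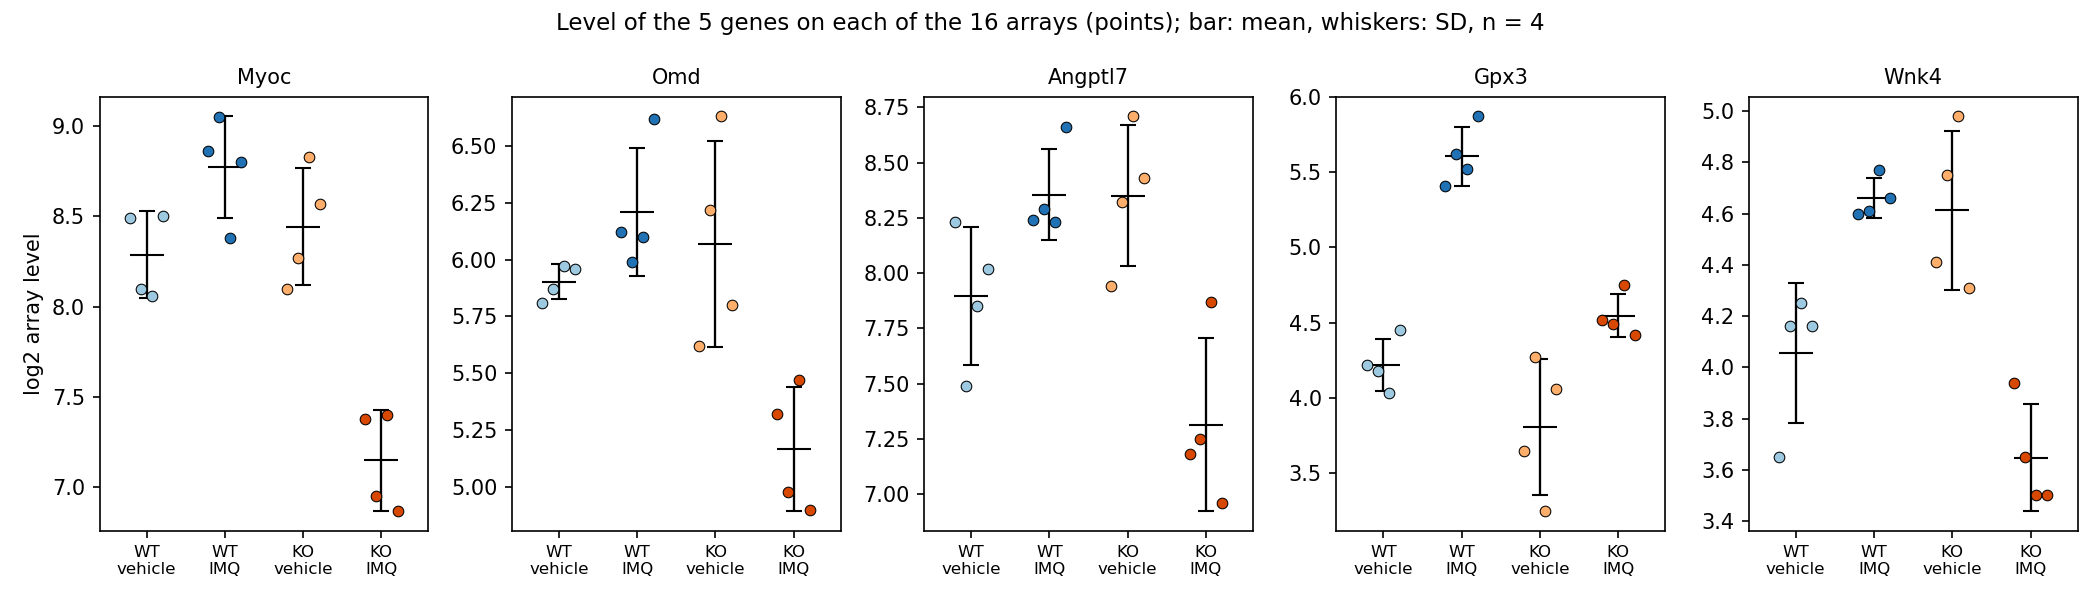
Log2 array level (y axis, a separate scale per gene) of Myoc, Omd, Angptl7, Gpx3 and Wnk4 in the 4 groups (x axis), with 1 point per array in replicate order, a bar at the mean and whiskers of 1 SD (n = 4). The knockout (KO) IMQ arrays lie below all 12 others for Myoc and Omd and overlap wild-type (WT) vehicle arrays for Angptl7 and Wnk4. For Gpx3 they lie below all WT IMQ and above all KO vehicle arrays.

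Omd, the matrix proteoglycan, showed the same order of group means as Myoc. Wild-type vehicle arrays read 5.81, 5.87, 5.97 and 5.96 and wild-type IMQ arrays 6.12, 5.99, 6.10 and 6.62. Knockout vehicle arrays read 5.62, 6.22, 6.63 and 5.80, and knockout IMQ arrays 5.32, 4.98, 5.47 and 4.90. The knockout IMQ arrays were again below all 12 others, and the knockout vehicle arrays were the most scattered. The means were 5.90 ± 0.08, 6.21 ± 0.28, 6.07 ± 0.45 and 5.17 ± 0.27 (SD, n = 4).

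Angptl7, the secreted angiopoietin-like protein, read 8.23, 7.49, 7.85 and 8.02 in wild-type vehicle ears and 8.24, 8.29, 8.23 and 8.66 in wild-type IMQ ears. It read 7.94, 8.32, 8.71 and 8.43 in knockout vehicle ears and 7.18, 7.25, 7.87 and 6.96 in knockout IMQ ears. Knockout IMQ arrays lay below both wild-type IMQ and knockout vehicle arrays, but the third of them (7.87) was above 2 wild-type vehicle arrays. Means were 7.90 ± 0.31, 8.36 ± 0.21, 8.35 ± 0.32 and 7.31 ± 0.39 (SD, n = 4), so wild-type IMQ and knockout vehicle means differed by less than the spread between arrays.

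Wnk4, the kinase, had group means between the 59.4th and 71.3rd percentiles of genes. Wild-type vehicle arrays read 3.65, 4.16, 4.25 and 4.16 and wild-type IMQ arrays 4.60, 4.61, 4.77 and 4.66. Knockout vehicle arrays read 4.41, 4.75, 4.98 and 4.31, and knockout IMQ arrays 3.94, 3.65, 3.50 and 3.50. The wild-type IMQ and knockout vehicle groups overlapped and both stood above the other 2 groups, which overlapped each other. Means were 4.05 ± 0.27, 4.66 ± 0.08, 4.61 ± 0.31 and 3.65 ± 0.21 (SD, n = 4).

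Gpx3, the plasma peroxidase, had its own order. It read 4.22, 4.18, 4.03 and 4.45 in wild-type vehicle ears and 5.41, 5.62, 5.52 and 5.87 in wild-type IMQ ears. It read 3.65, 4.27, 3.25 and 4.06 in knockout vehicle ears and 4.52, 4.49, 4.75 and 4.42 in knockout IMQ ears. Within each genotype every IMQ array was above every vehicle array. Means were 4.22 ± 0.17, 5.61 ± 0.20, 3.81 ± 0.45 and 4.54 ± 0.14 (SD, n = 4).

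The comparison by which the genes were chosen, knockout minus wild type in IMQ ears, gave a log2 difference of -1.62 ± 0.18 for Myoc (SE, 3.08-fold lower). It gave -1.06 ± 0.18 for Gpx3, -1.04 ± 0.19 for Omd, -1.04 ± 0.20 for Angptl7 and -1.01 ± 0.16 for Wnk4, from 2.08-fold to 2.02-fold lower. Groups did not overlap for any of the 5, with gaps between the nearest arrays from 0.36 for Angptl7 to 0.98 for Myoc, while 2.77% of all genes were lower without overlap. Of all genes, 0.100% were called lower and 0.0194% higher in this comparison (limma, Benjamini-Hochberg adjusted p under 0.05 over all genes), 31 and 6 genes. The selection had no stated cut-off: Ccl20 (-1.02) and Slc43a1 (-0.93) are among those 31 and were not selected. No test is given for these values, which chose the genes.

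In vehicle ears, where the compared means share no array with the selection, none of the 5 genes differed between genotypes beyond the threshold. The Myoc difference was 0.15 ± 0.18 (knockout minus wild type, SE, adjusted p = 0.808) and that of Omd was 0.17 ± 0.19 (adjusted p = 0.804). Angptl7 differed by 0.45 ± 0.20 (adjusted p = 0.362) and Gpx3 by -0.41 ± 0.18 (adjusted p = 0.345). Wnk4 differed by 0.56 ± 0.16 (1.47-fold higher, adjusted p = 0.124), and all 4 knockout arrays lay above all 4 wild-type arrays, as they did for 2.42% of genes. By limma's unadjusted p, 3 of the 5 were under 0.05 (Angptl7, Gpx3 and Wnk4), as were 12.2% of all genes. After adjustment 0.107% of all genes were called higher and 0.349% lower. That is 33 and 108 genes, and quantile normalization made it 55 and 103. The 95% interval of the difference ran from -0.23 to 0.54 for Myoc and from -0.24 to 0.57 for Omd. Knockout vehicle array 3 carried the highest Myoc, Omd, Angptl7 and Wnk4 and the lowest Gpx3 of its group. Without it the differences were 0.03 for Myoc, -0.02 for Omd and -0.23 for Gpx3, and without knockout vehicle arrays 3 and 4 the Myoc difference was -0.10 ± 0.20 and that of Angptl7 0.23 ± 0.23.

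The estimate of the mean IMQ effect over both genotypes is uncorrelated with the selecting difference when the IMQ groups are of equal size. The 5 genes were therefore tested for that mean effect too. The standard errors were pooled over all arrays, including the IMQ arrays that chose the genes, so the p-values are not free of the selection. Leaving out an IMQ array or weighting arrays makes the IMQ groups count unequally, so calls from such fits describe stability only. Gpx3 rose by 1.06 ± 0.12 on the log2 scale (2.09-fold, adjusted p = 7.26e-06), with every IMQ array above every vehicle array within each genotype. It was called under all 24 alternative settings. Myoc fell by 0.40 ± 0.13 (adjusted p = 0.0398). Omd (-0.30 ± 0.14, adjusted p = 0.171), Angptl7 (-0.29 ± 0.14, adjusted p = 0.204) and Wnk4 (-0.18 ± 0.11, adjusted p = 0.35) did not pass. Of all genes 15.2% were called in this comparison, in either direction. For every gene but Gpx3 it averages effects of opposite sign, given next. The Myoc call was kept under 11 of the 24 alternatives. It was lost on leaving out wild-type vehicle array 1 (-0.37) or 4 (-0.37), wild-type IMQ array 1 (-0.42), 3 (-0.34) or 4 (-0.41), knockout vehicle array 3 (-0.34) or 4 (-0.38), or knockout IMQ array 2 (-0.37) or 4 (-0.36), with adjusted p up to 0.0893. Without knockout vehicle arrays 3 and 4 together it was -0.27 (adjusted p = 0.22).

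Separated by genotype, Myoc, Omd, Angptl7 and Wnk4 had higher mean levels with IMQ in wild-type ears and lower ones in knockout ears. These effects share arrays with the selection and with each other, so they are given without tests. In wild-type ears Myoc was higher with IMQ by 0.48 ± 0.18, Angptl7 by 0.46 ± 0.20, Omd by 0.31 ± 0.19 and Wnk4 by 0.61 ± 0.16 (SE). In knockout ears the effect was -1.29 ± 0.18 for Myoc (2.45-fold lower), -1.04 ± 0.20 for Angptl7, -0.90 ± 0.19 for Omd and -0.96 ± 0.16 for Wnk4. All 4 were lower without overlap there, as were 7.43% of genes. In wild-type ears Omd (gap 0.02) and Wnk4 (gap 0.35) were higher without overlap, against 5.52% of genes, whereas Myoc overlapped and Angptl7 tied at 8.23. Among all genes 1.95% were called higher and 1.69% lower with IMQ in wild-type ears, and 8.07% and 6.91% in knockout ears.

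Gpx3 was higher with IMQ in both genotypes, by 1.39 ± 0.18 (2.61-fold) in wild-type and by 0.74 ± 0.18 (1.67-fold) in knockout ears. Neither pair of groups overlapped, and a rise without overlap was seen for 8.55% of genes in knockout ears. The effect in the knockout minus that in wild type was -1.78 ± 0.26 for Myoc, -1.57 ± 0.22 for Wnk4, -1.49 ± 0.28 for Angptl7, -1.21 ± 0.27 for Omd and -0.65 ± 0.25 for Gpx3. Genes called in this difference made up 0.530% (higher) and 0.721% (lower) of all genes. The difference contains the selecting comparison and supports nothing about these 5.

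**Figure D2:**
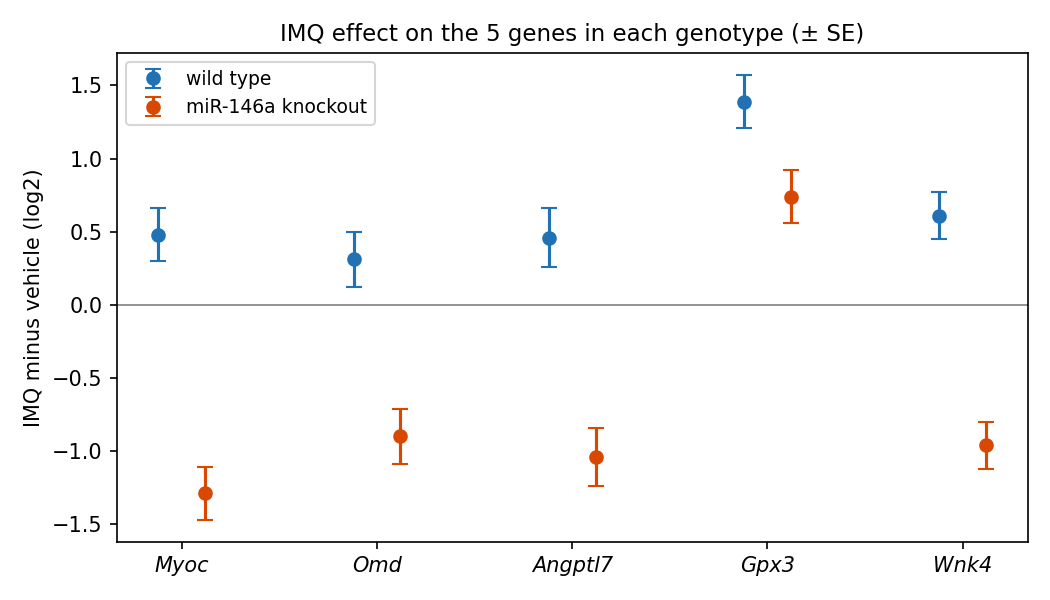
IMQ minus vehicle on the log2 scale (y axis) for the 5 genes (x axis) in wild-type and knockout ears, with whiskers of 1 SE from the fit to 16 arrays. Gpx3 is above 0 in both genotypes (1.39 and 0.74), and the other 4 genes are above 0 in wild-type and between -0.90 and -1.29 in knockout ears.

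The 5 genes fell into 2 patterns across the 16 arrays. Myoc, Omd and Angptl7 correlated with each other at a Pearson r of 0.88 for each pair, and Wnk4 correlated with them at 0.73 to 0.84. Gpx3 correlated with the other 4 at 0.13 to 0.22. The groups and their selection set much of these values: with group means removed, r was 0.68 for Myoc with Angptl7, 0.67 for Omd with Angptl7, 0.49 for Myoc with Omd, 0.59 for Omd with Wnk4, 0.04 for Myoc with Wnk4 and -0.07 for Angptl7 with Wnk4. These are descriptions over 16 arrays that share treatment and genotype, with no test.

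Among 12952 other named genes above the median level, those most like Myoc in pattern were Slc43a1, an amino acid transporter (r = 0.89 over 16 arrays, 0.69 with group means removed), Angptl7, the scavenger receptor gene Scara3 (0.88), Omd and Lrch3 (0.88). Omd was most like Scara3 (r = 0.92, 0.78 with group means removed), followed by the kinase Cdc42bpa (0.90), the RNA helicase Ddx42 (0.89), Angptl7 and Myoc. Genes near Angptl7 in pattern included Myoc, Omd, the natriuretic peptide receptor Npr2 (r = 0.88) and Scara3 (0.87). Scara3 was thus among the 5 nearest genes of all 3. Wnk4 was most like Arfgap1 (r = 0.86), the cholesterol exporter Abca1 (0.85), Omd (0.84), Specc1l (0.82) and the enkephalin precursor Penk (0.81). With group means removed these were 0.56, 0.36, 0.59, 0.69 and 0.22 in that order. Genes near Gpx3 included Grasp (r = 0.91), the chemokine Ccl20 (0.89), Pstpip2 (0.89) and the lymphatic marker Lyve1 (0.88). With group means removed, r with Gpx3 was 0.80 for Lyve1 and -0.11 for Ccl20.

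Omd belongs to a row of 4 matrix genes on chromosome 13, and its neighbours were lower with IMQ in knockout ears as well. In GRCm38.p6 the order is Cenpp, Ecm2, Aspn, Omd, Ogn, Nol8, Iars among protein-coding genes. Asporin (Aspn), a proteoglycan that binds collagen, fell with IMQ in knockout ears (-1.15 ± 0.16, SE, adjusted p = 5.48e-05), from 7.57 ± 0.24 to 6.42 ± 0.27 (SD, n = 4). Osteoglycin (Ogn) fell (-1.12 ± 0.21, adjusted p = 0.00111), from 6.99 ± 0.49 to 5.88 ± 0.16. Both had separate IMQ and vehicle arrays in the knockout: Ogn spanned 6.48 to 7.65 with vehicle and 5.75 to 6.11 with IMQ. In wild-type ears their effects were -0.11 ± 0.16 (adjusted p = 0.846) and -0.01 ± 0.21 (adjusted p = 0.992). The difference between genotypes passed for Aspn (-1.04 ± 0.22, adjusted p = 0.0298) and not for Ogn (-1.11 ± 0.30, adjusted p = 0.0788).

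Ecm2 and the genes past the row were chosen for mention after their values were seen. Ecm2, inside the row, fell in knockout ears (-1.05 ± 0.18, adjusted p = 0.000341). Nol8, a nucleolar protein gene beyond Ogn, rose by 0.60 ± 0.14 there (adjusted p = 0.00716), and Iars, an isoleucine tRNA synthetase gene, rose by 0.61 ± 0.11 (adjusted p = 0.000498). Gm25394, a small nucleolar RNA gene next to Iars, fell in knockout ears as the matrix genes did (-0.99 ± 0.12, adjusted p = 1.96e-05), and its IMQ effect differed between genotypes (-0.99 ± 0.17, adjusted p = 0.0119). Cenpp, a centromere protein gene on the other side whose annotated span overlaps Omd, read 0.23 ± 0.17 (adjusted p = 0.443). Between genotypes in IMQ ears Aspn differed by -0.65 ± 0.16 (adjusted p = 0.159), Ogn by -0.68 ± 0.21 (adjusted p = 0.332) and Ecm2 by -0.61 ± 0.18 (adjusted p = 0.262), and none passed.

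**Figure D3:**
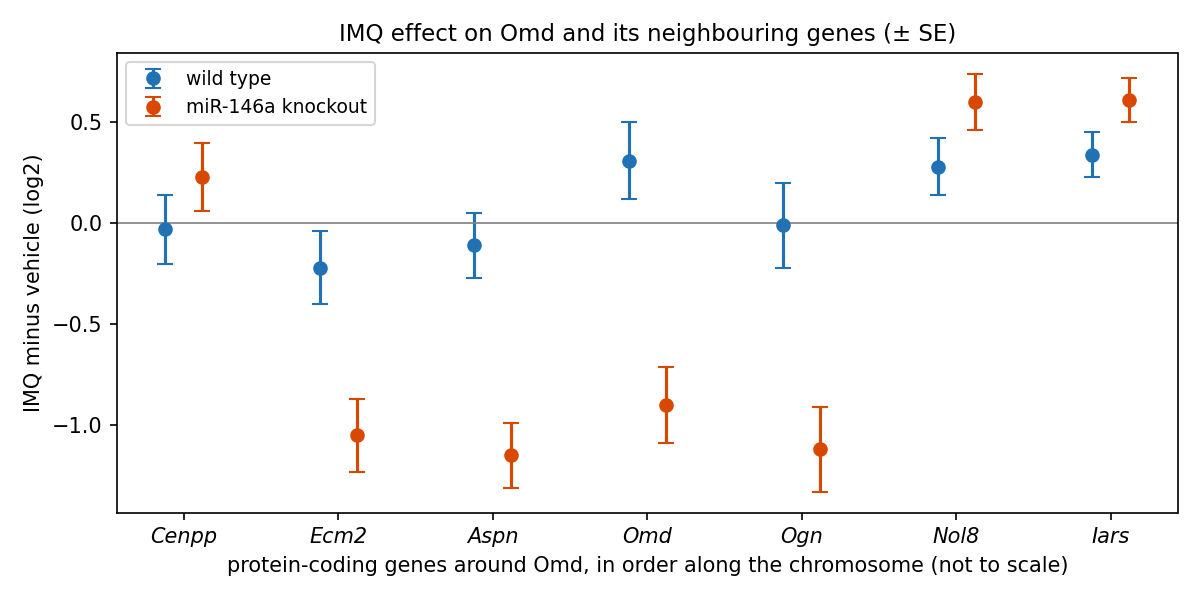
IMQ minus vehicle on the log2 scale (y axis) for Omd and the protein-coding genes around it in chromosomal order, not to scale (x axis), in wild-type and knockout ears, with whiskers of 1 SE. Ecm2, Aspn, Omd and Ogn lie between -0.90 and -1.15 in knockout ears, while Nol8 and Iars lie at 0.60 and 0.61.

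The other members had neighbours with other patterns. Mtor, a growth kinase gene whose annotated span holds Angptl7, differed between genotypes in IMQ ears by -0.09 ± 0.10 (adjusted p = 0.866), and the small nuclear RNA gene Gm24002 on the other side by -0.21 ± 0.17 (adjusted p = 0.808). Gpx3 lies between Hint1 (0.02 ± 0.12, adjusted p = 0.984) and Tnip1 (0.16 ± 0.14, adjusted p = 0.827), an inhibitor of NF-kB signalling. Wnk4 lies between Vps25 (-0.18 ± 0.13, adjusted p = 0.776) and Coa3 (0.47 ± 0.16, adjusted p = 0.385), and Myoc next to the pseudogene Gm5705 (0.46 ± 0.20, adjusted p = 0.541) and Myocos, which was not measured. Gpx3, Wnk4 and the deleted Mir146 share chromosome 11. There miR-146a-5p starts at base 43374435, and the promoter windows of Gpx3 and Wnk4 start at 54902604 and 101260317. The part of position in their levels was not tested. Lyrm7, 4 genes from Gpx3 and named after its values were seen, was higher in knockout ears with vehicle (0.57 ± 0.12, adjusted p = 0.0481) and with IMQ (1.02 ± 0.12, adjusted p = 0.00121).

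Among all genes 6.91% were called lower and 8.07% higher with IMQ in knockout ears. Of the 17 other genes of the small leucine-rich proteoglycan family, 7 fell and 0 rose with IMQ in knockout ears (median -0.25, all genes -0.02). The largest falls were those of chondroadherin (Chad, -1.73 ± 0.15, adjusted p = 3.19e-07), an adhesion protein of cartilage, and fibromodulin (Fmod, -1.24 ± 0.15, adjusted p = 1.41e-05), a collagen-fibril regulator, followed by Aspn and Ogn. Chad went from 9.23 ± 0.18 to 7.50 ± 0.24 in the knockout and from 8.83 ± 0.13 to 8.21 ± 0.26 in wild type (SD, n = 4). In wild-type ears Chad fell (-0.61 ± 0.15, adjusted p = 0.0213) and decorin (Dcn) rose (0.56 ± 0.14, adjusted p = 0.0368). Of the 16 fits that left out 1 array, 12 called a gene of the list lower in wild-type ears and 9 called one higher. The IMQ effects differed between genotypes for 2 of the 17, Chad (-1.11 ± 0.21, adjusted p = 0.0144) and Aspn, with a median of -0.48, beside 0.721% of all genes called lower. That count was 1 to 5 with any 1 array left out, the 5 being without knockout vehicle array 3, and 1 without knockout vehicle arrays 3 and 4. Omd itself was not among the 17.

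The families of Myoc and Angptl7 were examined next. Of 12 other genes with an olfactomedin domain, the domain that names Myoc's family, 1 gene, Olfml1, fell in knockout ears (-0.87 ± 0.22, adjusted p = 0.0109; median of the list -0.05), and in wild-type ears limma called 0, with 3 under an unadjusted p of 0.05, as were 14.3% of all genes. Of 11 other angiopoietins, angiopoietin-like proteins and their receptors, Angptl4, an inhibitor of lipoprotein lipase, rose by 1.40 ± 0.24 in wild-type (adjusted p = 0.00196) and 1.44 ± 0.24 in knockout ears (adjusted p = 0.000394). Angptl2, a secreted protein of the same family as Angptl7, fell in knockout ears (-0.92 ± 0.13, adjusted p = 6.96e-05). Limma called 0 genes of either family for the difference of effects, with 2 of 12 and 1 of 11 under an unadjusted p of 0.05, against 13.1% of all genes. With any 1 array left out, 1 to 2 olfactomedin-domain genes and 1 to 2 genes of the Angptl7 family fell in knockout ears. Of all genes 6.91% were called lower there, so 1 of 12 and 1 of 11 is close to that share.

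Around Gpx3, 6 of 24 other glutathione peroxidase and selenoprotein genes rose and 1 fell with IMQ in knockout ears (median -0.02), beside 8.07% and 6.91% of all genes. Gpx1, the cytosolic glutathione peroxidase, rose by 0.74 ± 0.12 (adjusted p = 0.000358), Sephs2, which makes the selenium donor, by 0.72 ± 0.17 (adjusted p = 0.00706) and 2700094K13Rik, now Selenoh, by 0.46 ± 0.14 (adjusted p = 0.0274). Sepp1, now Selenop, the plasma selenium carrier, fell (-0.74 ± 0.20, adjusted p = 0.0152). In wild-type ears Dio2, which activates thyroid hormone, was the 1 gene called (-0.99 ± 0.26, adjusted p = 0.0399), and 8 of the 16 fits that left out 1 array called a lower gene there. For the difference of effects limma called 0 of the 24, with 7 under an unadjusted p of 0.05, beside 13.1% of all genes. With any 1 array left out the knockout counts were 2 to 6 higher and 0 to 2 lower, the 2 being without knockout IMQ array 3, and without knockout vehicle arrays 3 and 4 they were 1 and 3.

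Around Wnk4, 3 of 21 other genes of the WNK-SPAK pathway and its transport targets rose and 4 fell in knockout ears (median 0.02), beside 8.07% and 6.91% of all genes. Wnk2, a paralog, fell (-1.14 ± 0.15, adjusted p = 3.15e-05). Nedd4l, a ubiquitin ligase of sodium channels, fell (-0.70 ± 0.13, adjusted p = 0.00111), and so did the cotransporter Slc12a2 (-0.69 ± 0.12, adjusted p = 0.000354). Scnn1a, a subunit of the epithelial sodium channel, rose by 0.75 ± 0.13 (adjusted p = 0.000605). Limma called 0 of the 21 in wild-type ears, with 5 under an unadjusted p of 0.05 beside the 14.3% of all genes given above. Nedd4l was the 1 gene whose effect differed between genotypes (-0.83 ± 0.19, adjusted p = 0.035), and its call was kept in 5 of 16 fits that left out 1 array and lost without knockout vehicle arrays 3 and 4. Of all genes 0.721% were called lower in that difference.

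Because Myoc and Angptl7 respond to glucocorticoids in human trabecular meshwork, 23 genes known to respond to glucocorticoids were examined. In wild-type ears 10 rose and 0 fell with IMQ (median 0.59, all genes -0.02), beside 1.95% and 1.69% of all genes. Fkbp5, a cochaperone of the glucocorticoid receptor, rose by 1.62 ± 0.21 (adjusted p = 0.000198), the transcription factors Cebpd by 1.62 ± 0.23 (adjusted p = 0.000335) and Zbtb16 by 1.58 ± 0.27 (adjusted p = 0.0018), and Angptl4 as above. In knockout ears 8 rose and 6 fell (median 0.25), beside 8.07% and 6.91% of all genes. The rises were led by Angptl4, the metallothioneins Mt2 (1.42 ± 0.17, adjusted p = 1.17e-05) and Mt1 (1.31 ± 0.16, adjusted p = 1.39e-05), and Cebpd (0.98 ± 0.23, adjusted p = 0.00528).

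The effects of IMQ differed between genotypes for 6 of the 23, all lower in the knockout (median of the list -0.47, all genes 0.01). Of all genes 0.721% were called lower and 0.530% higher in that difference. For Zbtb16 the difference was -1.85 ± 0.38 (adjusted p = 0.0243), for the clock gene Per1 -1.51 ± 0.21 (adjusted p = 0.0042), for the Krüppel-like factor Klf9 -1.40 ± 0.23 (adjusted p = 0.00941) and for Tsc22d3, the glucocorticoid-induced leucine zipper, -1.38 ± 0.20 (adjusted p = 0.00458). The count for the list was 5 to 7 with any 1 array left out and 6 without knockout vehicle arrays 3 and 4. Tsc22d3 had means of 4.18 ± 0.21 in wild-type vehicle, 5.00 ± 0.18 in wild-type IMQ, 5.04 ± 0.18 in knockout vehicle and 4.48 ± 0.22 in knockout IMQ ears (SD, n = 4). The wild-type IMQ and knockout vehicle means of Tsc22d3 thus lay within 1 SD of each other. That was not so for every gene of the list: Fkbp5 had means of 6.06 ± 0.33 and 4.85 ± 0.27 in those groups.

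**Figure D4:**
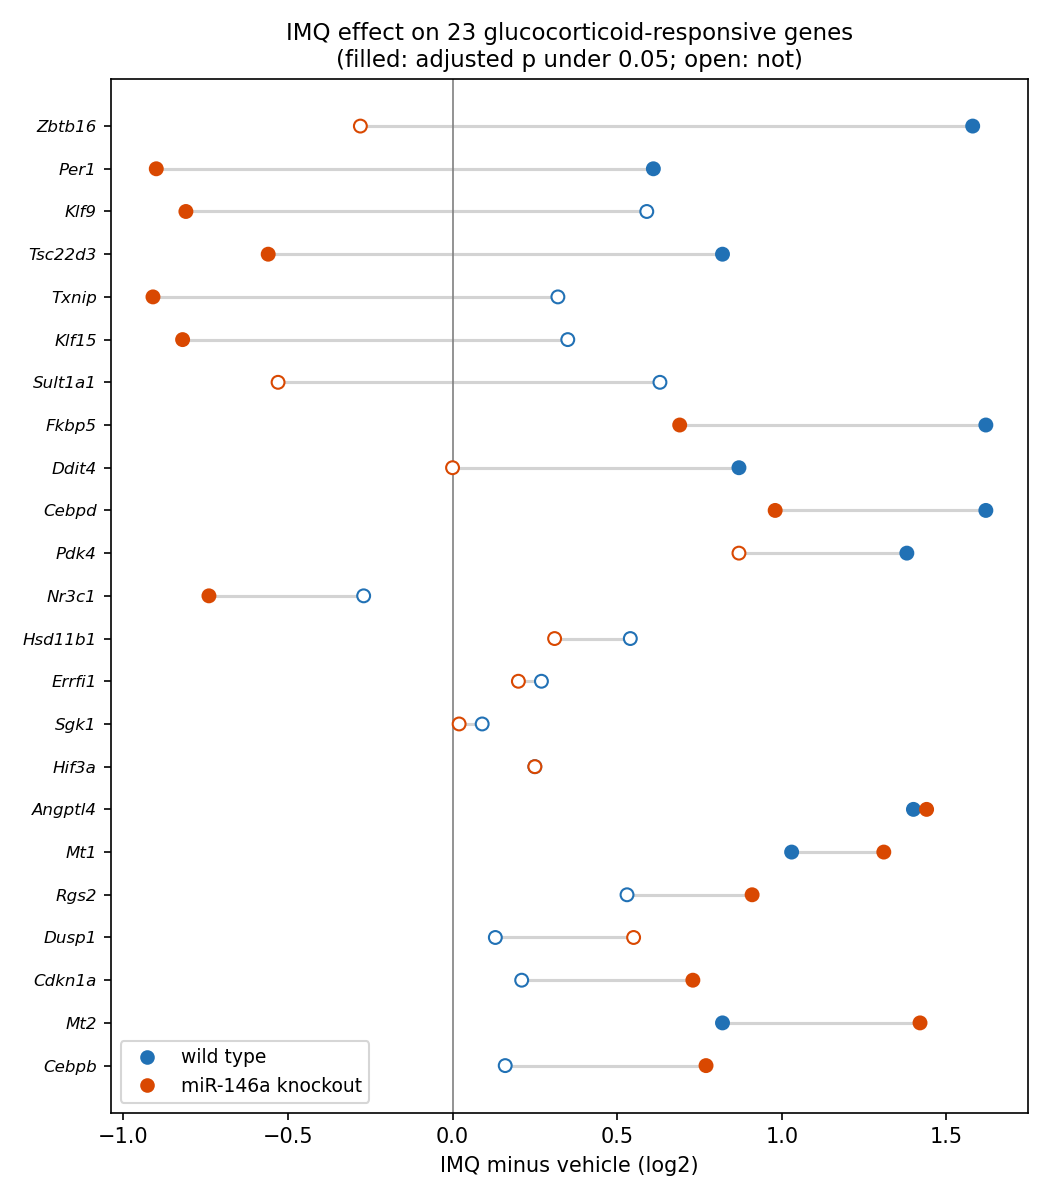
IMQ minus vehicle on the log2 scale (x axis) for 23 glucocorticoid-responsive genes (y axis), ordered by the difference between genotypes, with filled points for adjusted p under 0.05. In wild-type ears 10 genes are filled to the right of 0, and in knockout ears 8 are filled to the right and 6 to the left.

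Between genotypes, 4 of the 23 were higher in knockout vehicle ears, beside 0.107% of all genes: Klf15 (0.89 ± 0.16, adjusted p = 0.0201), Tsc22d3 (0.86 ± 0.14, adjusted p = 0.00963), Klf9 (0.79 ± 0.16, adjusted p = 0.0355) and Per1 (0.72 ± 0.15, adjusted p = 0.0341). That count was 1 to 5 with any 1 array left out and 1 without knockout vehicle arrays 3 and 4. In IMQ ears 2 were lower in the knockout, beside 0.100% of all genes. They were Txnip (-0.85 ± 0.14, adjusted p = 0.018), which binds thioredoxin, and Per1 (-0.79 ± 0.15, adjusted p = 0.0454), a count of 0 to 2 with any 1 array left out. This is the comparison that chose the 5 genes, and the list was drawn up with earlier results of these data known, so these 2 calls are descriptive. Several of these genes also follow the time of day, and the part of collection time or of glucocorticoids themselves in their levels was not tested.

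Markers of several tissues of the ear were lower with IMQ in knockout ears, as were Myoc, Omd, Angptl7 and Wnk4 but not Gpx3. Of all genes 6.91% were called lower there. In wild-type ears, where Myoc, Omd, Angptl7 and Wnk4 had higher means with IMQ, the skeletal muscle list had a median of 0.07. The median was 0.54 for the adipocyte, 0.02 for the Schwann cell, 0.01 for the fibroblast, -0.22 for the cartilage and -0.37 for the tendon list. All 20 skeletal muscle markers fell with IMQ in knockout ears (median -1.36), and their mean log2 level ranged from 8.26 to 9.27 on knockout vehicle, 7.05 to 7.89 on knockout IMQ, 7.58 to 8.46 on wild-type vehicle and 7.54 to 8.31 on wild-type IMQ arrays. Tcap (-2.13 ± 0.29, adjusted p = 5.22e-05) and Casq1 (-2.09 ± 0.25, adjusted p = 1.36e-05), genes of the sarcomere and of muscle calcium storage, fell most. The IMQ effects differed between genotypes for 12 of the 20 muscle markers, all lower in the knockout, beside 0.721% of all genes called lower. With any 1 array left out that count was 4 to 18. None of the 20 was below the array median in any group. In vehicle ears all 20 had higher means in the knockout than in wild type (median 0.81, all genes 0.01). All 20 had an unadjusted limma p under 0.05, as did 12.2% of all genes. After adjustment 1 was called higher, and 0 to 14 with any 1 array left out, beside 0.107% of all genes.

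Cartilage and tendon markers fell too. Of 17 cartilage markers on the array 9 fell with IMQ in knockout ears (median -0.73), among them Lect1, now Cnmd (-1.80 ± 0.22, adjusted p = 1.75e-05), and the collagen gene Col11a1 (-1.29 ± 0.18, adjusted p = 7.27e-05). Their mean level ranged from 4.99 to 5.19 with vehicle and 4.31 to 4.55 with IMQ in the knockout, and from 4.73 to 4.90 and 4.53 to 4.61 in wild type, with 4 or 5 of the 17 below the array median. Of 11 tendon and fibrous tissue markers 6 fell in the knockout (median -0.62), led by Wif1 (-1.64 ± 0.17, adjusted p = 2.61e-06), Cilp (-1.47 ± 0.21, adjusted p = 8.9e-05) and Comp (-1.38 ± 0.18, adjusted p = 3.62e-05). Their mean level ranged from 5.50 to 5.96 and 4.87 to 5.21 in the knockout and from 5.45 to 5.65 and 5.27 to 5.39 in wild type. In wild-type ears 1 of the 17 cartilage markers and 0 of the 11 tendon markers were called with IMQ (limma, with 7 and 6 under an unadjusted p of 0.05), and the list medians were -0.22 and -0.37. The IMQ effects differed between genotypes for 1 of the 17 (median -0.21) and 2 of the 11 (median -0.46), beside 0.721% of all genes called lower. With any 1 array left out these counts were 1 to 2 and 1 to 4.

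**Figure D5:**
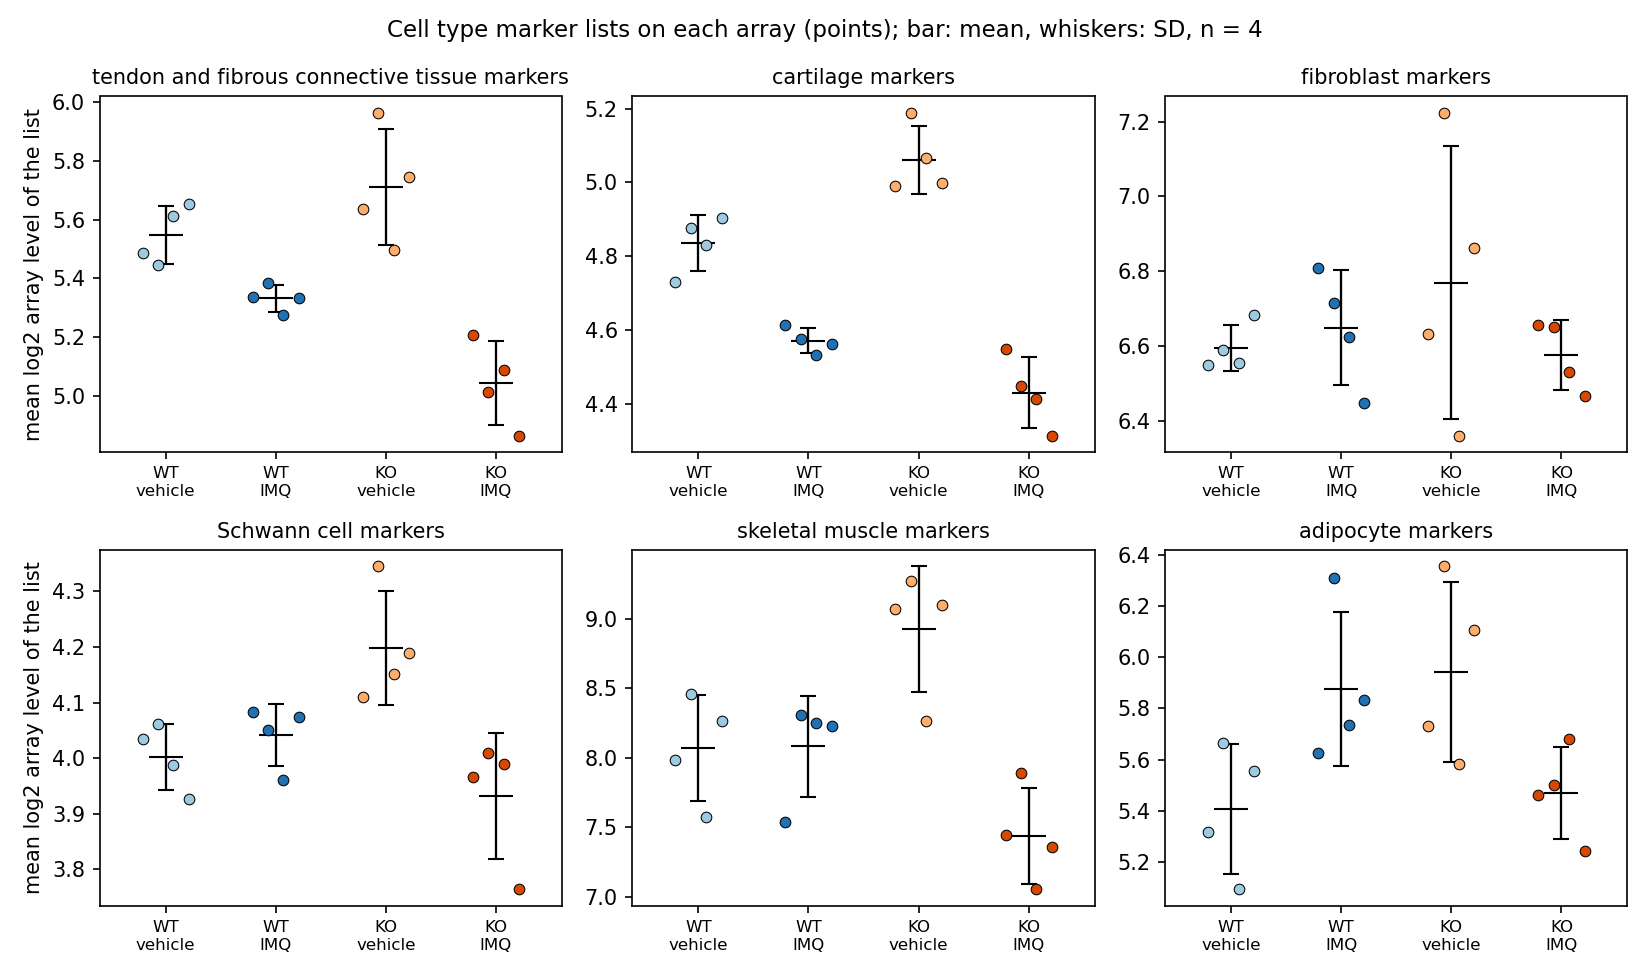
Mean log2 array level (y axis) of 6 marker lists in the 4 groups (x axis), with 1 point per array, a bar at the mean and whiskers of 1 SD (n = 4). Skeletal muscle markers range from 8.26 to 9.27 in knockout (KO) vehicle and from 7.05 to 7.89 in KO IMQ ears, and fibroblast markers overlap between all 4 groups.

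Markers of nerve sheath, fat, dermis, epidermis, myeloid cells and vessels were measured alongside. Of 16 Schwann cell markers 4 fell with IMQ in knockout ears (median -0.14), where 6.91% of all genes were called lower and 8.07% higher. Among the 4 was S100b (-1.29 ± 0.19, adjusted p = 0.000115). Of the 16, 4 to 7 were below the array median, depending on the group. The number of Schwann cell markers that fell was 2 to 5 with any 1 array left out. Their IMQ effects differed between genotypes for 1 of the 16 (median of the list -0.27), beside 0.721% of all genes called lower. Of 15 adipocyte markers 4 fell in the knockout (median -0.42; 1 to 6 with any 1 array left out) and 2 rose in wild type (median 0.54; 1 to 3). Their mean level ranged from 5.58 to 6.36 and 5.24 to 5.68 in knockout vehicle and IMQ ears, and from 5.09 to 5.66 and 5.62 to 6.31 in wild type. The IMQ effects differed between genotypes for 2 of the 15 adipocyte markers (median -0.98), beside 0.721% of all genes called lower. That count was 0 to 6 with any 1 array left out. In vehicle ears 14 of the 15 adipocyte markers had higher means in the knockout than in wild type (median 0.62). Limma called 0 of them, with 9 under an unadjusted p of 0.05, beside 12.2% of all genes. Of 17 fibroblast markers 1 rose and 4 fell in the knockout (median -0.09), with a mean level of 6.36 to 7.22 with vehicle and 6.47 to 6.66 with IMQ. Keratinocyte markers had means of 9.64 to 10.37 on knockout vehicle arrays and 10.48 to 10.73 on all others. Of these 13 markers 2 were called lower in knockout than in wild-type vehicle ears, beside 0.349% of all genes. They were Krt6a (-2.70 ± 0.55, adjusted p = 0.0326) and Sprr1b (-1.86 ± 0.30, adjusted p = 0.00918). The list median was -0.21, with 12 of the 13 below 0. Of 12 myeloid markers 9 rose with IMQ in each genotype (medians 1.53 in wild type and 2.01 in the knockout), led by the neutrophil gene Retnlg (3.18 ± 0.24, adjusted p = 6.47e-07) in wild-type and the calgranulin gene S100a8 (3.48 ± 0.40, adjusted p = 8.18e-06) in knockout ears. Their mean level ranged from 5.18 to 5.74 with vehicle and 6.83 to 7.16 with IMQ in wild type. In the knockout it ranged from 4.95 to 5.50 with vehicle and from 6.73 to 7.14 with IMQ. Every IMQ array was thus above every vehicle array, which for Gpx3 held only within each genotype. Between genotypes in IMQ ears limma called 0 of the 12 myeloid markers (median 0.12). Of 12 endothelial markers 2 rose in each genotype (medians 0.37 and 0.12), Lyve1 and Pecam1 in wild type and Cdh5 and Pecam1 in the knockout, and the knockout count was 1 to 2 with any 1 array left out. The part of any of these tissues in the levels of the 5 genes was not tested.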

How the data were processed

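Ear RNA was hybridised to 16 Affymetrix Gene ST 2.1 arrays. Per the submitters' processing notes the tool was Affymetrix Expression Console, and the authors deposited log2 values. The sources used here do not give the summarisation or the genome build. The values run from 1.25 to 13.29 with array medians of 3.21 to 3.28 and were used without further normalization. The number of arrays limits the precision. The authors' deposited annotation gives 1 symbol to 32471 of 41345 clusters, and the cluster with the highest mean was kept per symbol (909 symbols had more than 1, none of them among the 5 genes), leaving 30943 genes with no filter on dim ones.

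With limma 3.58.1 (lmFit, then eBayes; R 4.3.3), a model of 4 group means was fitted on the 16 arrays together, which left 12 residual degrees of freedom beside 6.18 from the prior, and p-values were adjusted by Benjamini-Hochberg over all genes. An adjusted p under 0.05 was called. Errors after ± are standard errors for differences and SDs for means. The fit was tested on simulated data. The 5 genes and all gene lists were chosen with earlier results of these data known. Named genes are the 5, up to 4 called genes of largest change per family list and contrast (3 per cell type list), the 5 most alike in Pearson r, and immediate neighbours in the RefSeq gene table (GRCm38.p6), of which some are not reported here. Promoter and microRNA sequences are RefSeq's. Alternatives were arrays left out, array weights, quantile normalization, median centring, a trended and robust eBayes, a filter on dim genes, each cluster tested separately, fits restricted to the compared groups, and replicate numbers as a block. The array numbers did not pair samples: deviations of same-numbered arrays correlated at over 0.1 in 1 of 24 pairs.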

Additional observations from a re-analysis of the deposited data

Results flagged for a closer look

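Some arrays stood away from the other 3 of their group by Dixon's test at the 95% level, which chance alone would meet in about 1 of 20 groups, and 5 of 96 groups examined met it. Angptl7 read 8.66 on wild-type IMQ array 4, against 8.29 on the next array. Wnk4 read 3.65 on wild-type vehicle array 1, against 4.16 on the next. The mean of the olfactomedin-domain list was 3.96 on 1 knockout IMQ array, against 4.17 on the next. The skeletal muscle list was 7.54 on wild-type IMQ array 1, against 8.23, and the myeloid list 6.73 on 1 knockout IMQ array, against 7.10.

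IMQ effects lay on opposite sides in the 2 genotypes for 4 of the chosen genes, and the difference was not tested because it contains the comparison that chose them: -1.78 for Myoc, -1.21 for Omd, -1.49 for Angptl7 and -1.57 for Wnk4 on the log2 scale. The interaction term of limma passed for Aspn (-1.04) and Chad (-1.11) among matrix proteoglycans, for Nedd4l (-0.83) in the WNK-SPAK list, and for Tsc22d3 (-1.38), Zbtb16 (-1.85), Per1 (-1.51) and Klf9 (-1.40) among glucocorticoid-responsive genes.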

How the results depend on the processing

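Across 25 alternatives the 5 genes kept the direction of every comparison with 2 exceptions, both in vehicle ears: Myoc read -0.10 (knockout minus wild type) without knockout vehicle arrays 3 and 4, and Omd -0.02 without knockout vehicle replicate 3, within a leave-one-out range of -0.02 to 0.31. The cause was not tested. Gpx3's mean IMQ effect stayed called throughout (0.97 to 1.14). That of Myoc lost its call under median centring (-0.37, adjusted p = 0.0607), array weights (-0.36, 0.0551), the replicate block (-0.40, 0.0663) and without knockout vehicle arrays 3 and 4 (-0.27, 0.22), and ran from -0.46 to -0.34 with any 1 array left out.

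Counts of called genes moved more. In vehicle ears the 141 genes became 357 with the filter on dim genes, which tests 16400 genes, 343 with trend and robust options, 237 with array weights, 15 with only the compared groups, 240 with the replicate block and 37 to 474 with 1 array left out. Between genotypes in IMQ ears the 37 became 85 with trend and robust options, 11 with only the compared groups and 7 to 80 with 1 array left out, the 80 without knockout IMQ array 3. For the difference of effects the 387 became 723 with the filter, 652 with trend and robust options and 149 to 824 with 1 array left out, the 824 and the 474 both without knockout vehicle array 3. Of 1291 list counts under alternatives 1052 stayed within 1.5 times. Numbers 1 to 4 are shared by the groups, but only 6 of 16 arrays correlated best with their own number, so the replicate block is no pairing; it changed no other call of the 5 genes. Fits with only the compared groups could not be made for the mean effect or the difference, which need all 4 groups. Signal over background was not measured here; 4 arrays per group limit the precision.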
